A study of Mus musculus with 18 samples.

Results

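The genes described here are those of cholesterol synthesis, of sterol uptake and intracellular handling, and of the export program run by the liver X receptors (LXR), together with a few lipid genes that share their control. The set was defined by name, not by measured values: 37 genes were listed, and a gene counted as a member where the array carried a probeset annotated to it alone. Where a gene had more than 1 such probeset, that with the highest mean was used. In all, 35 members were measured, out of 19938 genes. Nr1h2 and Soat1 were listed and are not analysed here.

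The members were followed across XCR1+ dendritic cells (DCs) of the mouse thymus, the conventional DC type that cross-presents antigen to CD8 T cells. Untreated mice of the B6 strain were used, and cells were sorted as CD11b- CD11c+ MHCII+ CD172a- XCR1+ CD8a+ at 2 stages, immature (CD117+ CCR7-) and homeostatically matured (CD117- CCR7+). Each stage was taken from 3 backgrounds: wild-type mice under specific pathogen-free housing (CTRL), mice housed likewise that lack IFNAR1, a chain of the receptor for type I interferon (Ifnar1-KO), and wild-type mice raised germ-free (GF). The labels give neither ages nor the Ifnar1 allele. Each of the 6 groups had 3 arrays, 18 in all, and values are log2 intensities. The labels do not say whether a group's arrays stem from separate mice, so the p-values measure the spread between arrays, which may be partly technical. Because an array reads RNA from many cells at once, fewer cells with a transcript and less of it per cell cannot be told apart.

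Cells make cholesterol from acetyl-CoA through mevalonate, isoprenoids, squalene and lanosterol. When sterol in the endoplasmic reticulum is low, the escort protein Scap carries the transcription factors SREBP1 and SREBP2 (genes Srebf1 and Srebf2) to the Golgi, where they are cut and released to the nucleus to switch on synthesis and uptake genes; the Insig proteins hold Scap back when sterol is plentiful. Oxysterols, which form when sterol is in excess, activate LXR, which drives the exporters Abca1 and Abcg1, and Apoe. Isoprenoids made on the way to cholesterol are also attached to small GTPases that steer the cytoskeleton and migration of immune cells.

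Markers followed the sort. Ccr7 read 7.25 to 9.09 on the CCR7- arrays and 11.79 to 12.09 on the CCR7+ arrays, and Kit, which encodes CD117, read 8.54 to 9.30 and 5.31 to 7.04. The mean of 11 markers of XCR1+ DCs ranged from 10.02 to 10.25 on CCR7- arrays and from 7.03 to 8.34 on CCR7+ arrays. In CTRL 7 of the 11 fell and 1 rose, where 13.6% and 12.6% of all genes did. The mean of 14 thymocyte markers was 4.63 to 5.59 on CCR7- arrays and 5.43 to 8.26 on CCR7+ arrays, with the highest value on Ifnar1-KO replicate 2. Of those 14 genes, 2 rose in CTRL and 3 each in Ifnar1-KO and GF (limma), where 12.6%, 9.42% and 9.53% of all genes did. The median change of the list was 1.13, 1.84 and 1.41 in CTRL, Ifnar1-KO and GF. Cd8b1, called in each, rose by 1.69, 2.74 and 2.03. Genes of cell division, 19 in number, averaged 8.35 to 8.90 on CCR7- arrays and 5.53 to 6.27 on CCR7+ arrays. The part of these shifts in the changes below was not tested. The Ifnar1 probeset gave 8.07, 7.27 and 7.66 in immature Ifnar1-KO cells (CTRL, 8.06 to 8.09) and 7.61, 6.07 and 6.96 in mature ones (CTRL, 7.61 to 7.82), so that replicate 1 sat at the CTRL level at both stages. The sources used here do not say whether its probes lie in the disrupted part, so these values do not check the labels. Ifnar1-KO replicate 2 and GF replicates 2 and 3 stood apart on a principal component with 4.20% of the variance. Calls lost or gained without them are given beside the results, for some genes only within a count of alternatives. Called values that then move by over 1.5 times are given too.

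Sterol genes did not move as a block during maturation. In every background Hmgcs1, Pmvk, Idi1, Fdft1 and Sqle of the synthesis pathway rose, as did the lysosomal sterol carrier Npc2, the exporter Abcg1 and the apolipoprotein L gene Apol7c, while Scap, Insig2 and the fatty acid genes Fasn and Scd2 fell. In CTRL, 17 of 35 members changed between CCR7+ and CCR7- cells at a Benjamini-Hochberg adjusted p under 0.05 over all genes (limma): 9 rose, where 12.6% of all genes did, and 8 fell, where 13.6% did. Over both directions 48.6% of members were called, against 26.2% of all genes. In Ifnar1-KO 15 were called, beside 20.2% of all genes: 11 rose (9.42% of all genes did) and 4 fell (10.8%). In GF 16 were called, beside 21.3%: 8 rose (9.53%) and 8 fell (11.8%). Those called up in all 3 backgrounds numbered 8 of 35, against 6.74% of all genes, and those called down in all 3 numbered 4, against 8.71%. A further 8 members were called in 1 or 2 backgrounds, 15 in none, and 0 were called in opposite directions. The median change of the members was 0.10 in CTRL, 0.06 in Ifnar1-KO and 0.11 in GF, beside 0.07, 0.00 and 0.03 over all genes. The 9 CCR7+ arrays lay above all 9 CCR7- arrays for 7 members, beside 7.0% of all genes, and below them for 5, beside 8.28%.

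**Figure D1:**
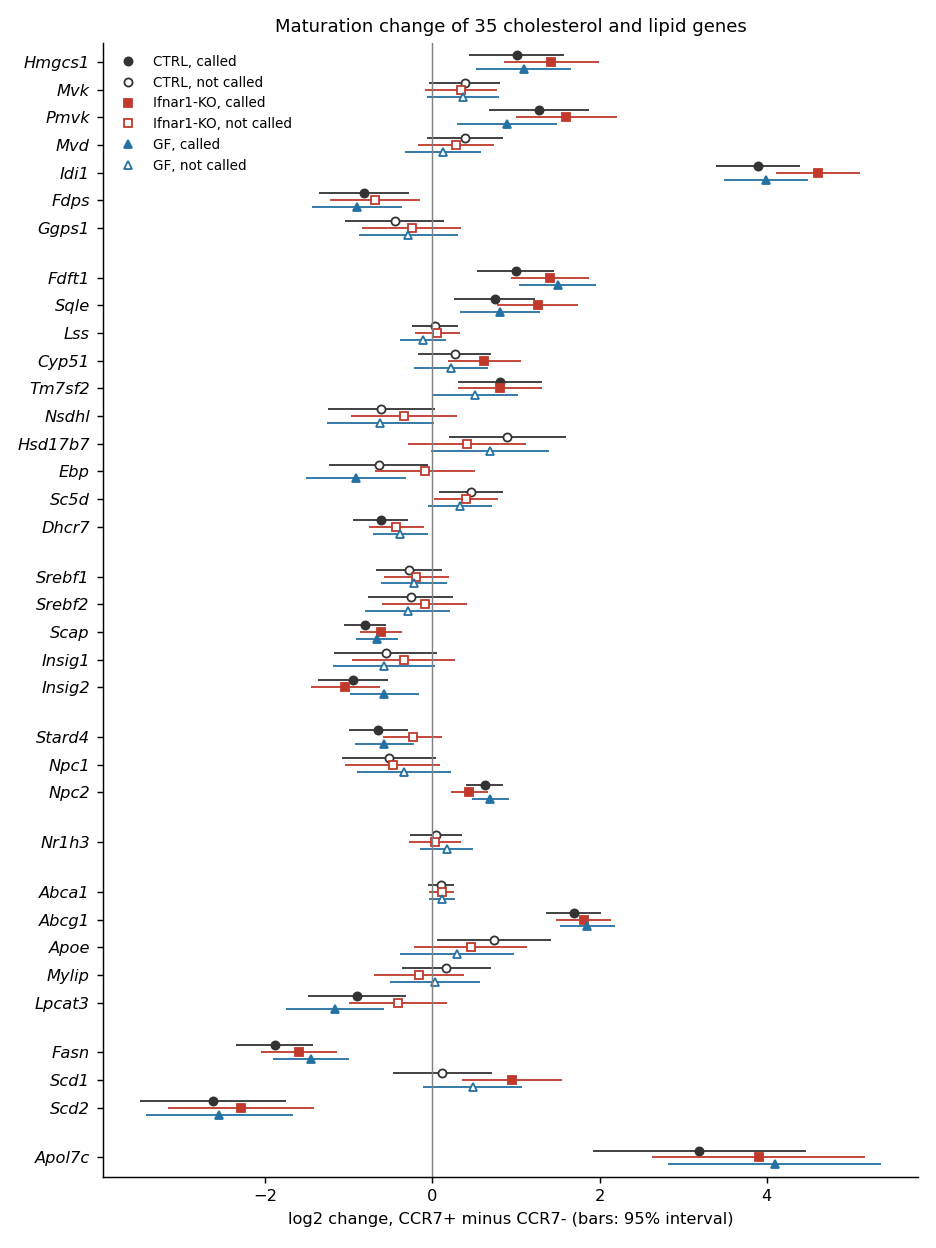
Maturation change (CCR7+ minus CCR7-, log2 scale) of the 35 members in CTRL (circles), Ifnar1-KO (squares) and GF (triangles), with 95% confidence intervals and genes grouped by role. Filled symbols are changes called at an adjusted p under 0.05; Idi1 and Apol7c lie farthest to the right, Scd2 and Fasn farthest to the left, and in the group of SREBP control genes every point lies left of 0.

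Among the 7 measured enzymes that lead from acetyl-CoA units to isoprenoids, 3 rose in each background, where 6.74% of all genes did. They were Hmgcs1, Pmvk and Idi1, and Fdps fell in CTRL and GF. The median change of these enzymes was 0.39 in CTRL, 0.34 in Ifnar1-KO and 0.37 in GF. Idi1, isopentenyl diphosphate isomerase, which makes the reactive building block for all longer isoprenoids, had the largest rise of these 7. It read 6.37, 5.57 and 6.20 on the CTRL CCR7- arrays and 10.37, 9.82 and 9.63 on the CTRL CCR7+ arrays. In Ifnar1-KO it read 4.88, 5.38 and 5.68 before maturation and 9.70 to 10.06 after it. In GF it read 6.11, 5.76 and 5.87 and then 10.01, 9.75 and 9.93. Each CCR7+ array was more than 3 log2 units above each CCR7- array, and the 3 CCR7+ groups almost coincided, with means of 9.94, 9.92 and 9.90. The rise was 14.9-fold in CTRL (95% interval 10.5 to 21.1; limma adjusted p 1.91e-08), 24.4-fold in Ifnar1-KO (17.2 to 34.5) and 15.9-fold in GF (11.2 to 22.5). That placed Idi1 at rank 35 of 19938 genes by size of rise in CTRL, rank 24 in Ifnar1-KO and rank 36 in GF. A separate probeset annotated to Idi1 gave rises of 3.91, 4.71 and 3.99 on the log2 scale. Whether either probeset also reads the close relative Idi2 or pseudogene copies was not tested.

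Hmgcs1, which condenses acetyl units into HMG-CoA, read 6.99, 6.73 and 7.04 in CTRL CCR7- cells and 8.19, 7.53 and 8.06 in CTRL CCR7+ cells. Ifnar1-KO arrays gave 6.69, 6.30 and 6.73 and then 8.65, 7.70 and 7.63, and in GF 7.02, 6.39 and 6.84 and then 8.13, 7.49 and 7.91. No CCR7- array reached the lowest CCR7+ array, and Hmgcs1 rose by 1.01 ± 0.27 (SE, n = 3 arrays a group), 1.42 ± 0.27 and 1.09 ± 0.27 on the log2 scale, with limma adjusted p-values of 0.011, 0.0011 and 0.0072. Without GF replicates 2 and 3 the GF change was 1.12 and lost its call (adjusted p 0.17), with 1 array left a stage. Pmvk, the kinase that makes mevalonate diphosphate, read 7.04, 6.81 and 6.87 in CTRL CCR7- cells and 8.12, 8.05 and 8.37 in CTRL CCR7+ cells. Its Ifnar1-KO values were 7.12, 5.52 and 6.50 and then 7.93, 8.0 and 8.03, and its GF values 7.04, 6.81 and 7.12 and then 7.52, 8.17 and 7.96. The stages did not overlap, though Ifnar1-KO CCR7- replicate 2 lay well below its group. Pmvk rose 2.42-fold in CTRL (95% interval 1.59 to 3.68), 3.04-fold in Ifnar1-KO and 1.86-fold in GF. The GF call of Pmvk (adjusted p 0.034) was lost without any CCR7- array of GF or without CCR7+ replicate 2 or 3 (adjusted p 0.057 to 0.13), and without GF replicates 2 and 3 at both stages its change was 0.48 (0.69).

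The other enzymes of this stretch were not called up in any background. Fdps, which joins isoprenoid units into farnesyl diphosphate at the branch between sterols and protein prenylation, read 7.87 to 8.29 over the 9 CCR7- arrays and 6.61 to 7.81 over the 9 CCR7+ arrays, without overlap. It fell by 0.82 ± 0.25 in CTRL and by 0.90 ± 0.25 in GF (limma adjusted p 0.026 and 0.018). In Ifnar1-KO its change of -0.69 was not called (0.072), though without CCR7+ replicate 1 it was (-0.93; 0.020). The CTRL call was lost without CCR7- replicate 1 or 3 or CCR7+ replicate 2 (adjusted p 0.055 to 0.11), and the GF call without CCR7- replicate 1 (0.055), without CCR7+ replicate 2 (0.092), or without GF replicates 2 and 3 (0.32). Mvk, the mevalonate kinase, and Mvd, the decarboxylase that follows Pmvk, had changes of 0.39 each in CTRL, 0.34 and 0.28 in Ifnar1-KO, and 0.37 and 0.12 in GF, of which none was called. Without GF replicates 2 and 3 the Mvk change was called in GF (0.93; limma adjusted p 0.016) and in CTRL (0.39; 0.041). Ggps1, which extends farnesyl diphosphate to a longer isoprenoid, had changes of -0.45, -0.25 and -0.29, also not called.

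**Figure D2:**
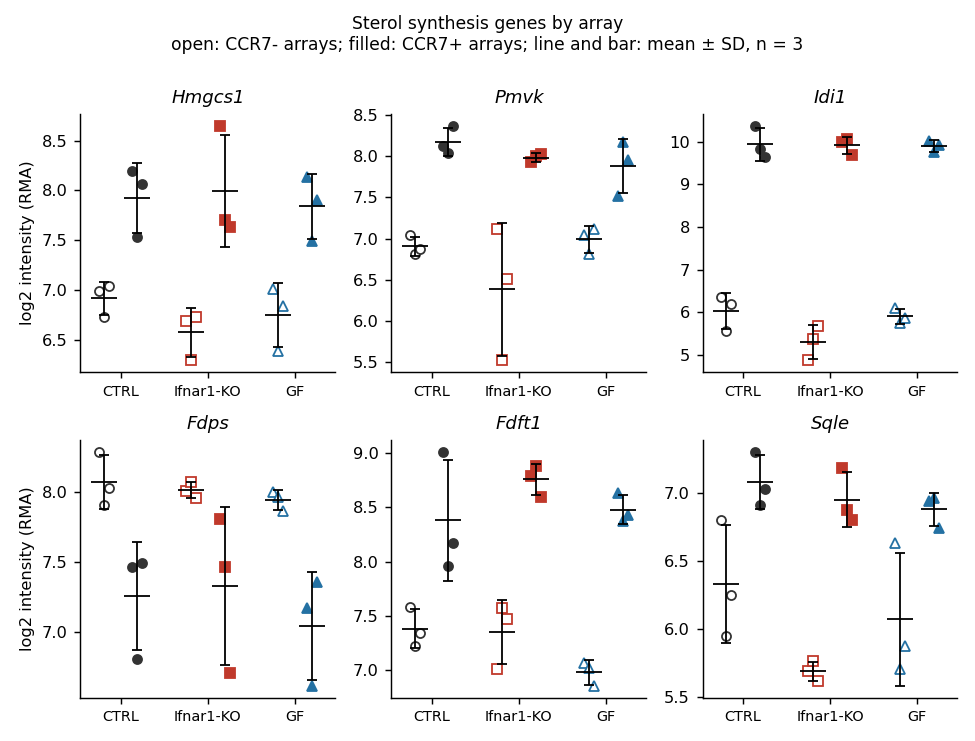
Log2 intensity of 6 sterol synthesis genes on each array, by background; open symbols are CCR7- arrays, filled symbols CCR7+ arrays, and lines with bars the mean ± SD of 3 arrays. Vertical scales differ between panels: Idi1 spans 4.88 to 10.37, and Fdps is the panel in which the filled symbols lie lower. For Sqle, CTRL replicate 1 in CCR7- cells (6.80) lies above the lowest CCR7+ array (6.74, in GF). GF replicate 1 in CCR7- cells (6.63) lies close to the CCR7+ arrays.

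Promoter sequence was examined for short motifs that SREBP and its partners are known to use. RefSeq windows (GRCm38.p6, 250 bases before to 50 after each annotated start) were given for 27 of 35 members. Of the risers, Fdft1, Sqle and Abcg1 have no window. The sterol regulatory letters TCACNCCAC, searched on both strands, occurred in 1 of 27 members, Hmgcs1, and in 1.44% of all 27025 genes with a window. The NF-Y box CCAAT occurred in 22 of 27 members, among them 14 of 14 sterol synthesis members with a window, beside 41.1% of all genes; the GC box GGGCGG occurred in 21 of 27, among them 12 of the 14, beside 38.2%. The LXR element, a direct repeat of GGTCA with a spacer of 4 bases, occurred in 0 of 27, beside 0.0518% of all genes. A window was given for 5 members called up in all 3 backgrounds and for 3 called down in all 3. The NF-Y box occurred in 4 of the 5 and 2 of the 3, and the GC box in 3 of the 5 and 2 of the 3. The stretches shown are therefore examples and do not stand for rising or falling members. Scap has 2 windows and is among the 21 with a GC box. Its GC boxes all lie past the stretch shown, at base 39 after the start in the first window and at -30, 15 and 38 in the second. No 2 matches overlap in the stretches shown. The 150 bases before the start are printed for 2 genes that rose in all 3 backgrounds, Hmgcs1 (chr13:119690201-119690350, + strand) and Idi1 (chr13:8885456-8885605, + strand), and for Scap (chr9:110333138-110333287, + strand), which fell in all 3 and holds none of the patterns there. Capitals mark matches to any of the patterns on either strand, so that CCGCCC and ATTGG are the GC box and the NF-Y box read from the other strand.
Hmgcs1: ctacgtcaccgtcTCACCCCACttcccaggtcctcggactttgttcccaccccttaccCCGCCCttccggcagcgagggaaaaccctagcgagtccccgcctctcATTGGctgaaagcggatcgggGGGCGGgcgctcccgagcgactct
Idi1: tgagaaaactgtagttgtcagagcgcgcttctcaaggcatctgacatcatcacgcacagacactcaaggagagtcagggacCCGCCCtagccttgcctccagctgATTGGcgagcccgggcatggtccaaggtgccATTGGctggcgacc
Scap: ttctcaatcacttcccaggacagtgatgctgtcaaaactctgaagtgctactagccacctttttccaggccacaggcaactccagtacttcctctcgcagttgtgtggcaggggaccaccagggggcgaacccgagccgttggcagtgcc
Within these 150 bases Hmgcs1 thus carries the sterol regulatory letters with a GC box on each strand and 1 NF-Y box. Idi1 carries 2 NF-Y boxes and 1 GC box there. Over its whole window Hmgcs1 holds 4 NF-Y boxes and 3 GC boxes, and Idi1 again 2 and 1. A match describes letters and not binding.

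Of the 10 measured enzymes from squalene to cholesterol, 3 rose and 1 fell in CTRL, and 4 rose and 0 fell in Ifnar1-KO. In GF 2 rose and 1 fell. Among all genes, 12.6% rose and 13.6% fell in CTRL, 9.42% and 10.8% in Ifnar1-KO, and 9.53% and 11.8% in GF. The median changes of these 10 enzymes were 0.36, 0.41 and 0.28 in CTRL, Ifnar1-KO and GF. Fdft1 and Sqle, the first steps of this branch, rose in all 3 backgrounds. Fdft1, squalene synthase, which commits farnesyl diphosphate to sterols, read 6.85 to 7.58 over the 9 CCR7- arrays and 7.96 to 9.01 over the 9 CCR7+ arrays. No array of either stage crossed into the other, and Fdft1 rose by 1.0 ± 0.22 in CTRL, 1.40 ± 0.22 in Ifnar1-KO and 1.5 ± 0.22 in GF (limma adjusted p 0.0028, 0.00019 and 0.00010). A separate Fdft1 probeset gave rises of 1.15, 1.39 and 1.30. Sqle, squalene epoxidase, the oxygen-using step that limits flux into sterols, read 5.62 to 6.80 in CCR7- cells and 6.74 to 7.30 in CCR7+ cells, so that the stages overlapped across backgrounds but not within any of them. It rose by 0.75 ± 0.23 in CTRL, 1.26 ± 0.23 in Ifnar1-KO and 0.81 ± 0.23 in GF. In CTRL the Sqle call was lost without CCR7- replicate 2 or 3 or CCR7+ replicate 1 or 3 (adjusted p 0.052 to 0.12). In GF it was lost without replicate 2 or 3 in CCR7- cells or replicate 1 or 2 in CCR7+ cells (0.054 to 0.087) or with the GF groups fitted alone (0.079), and its change was 0.31 without GF replicates 2 and 3 (0.68).

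The ring-modifying enzymes past squalene epoxide went separate ways. Lss, which folds squalene epoxide into lanosterol, had changes of 0.03, 0.06 and -0.11, none of them called, at group means of 4.40 to 4.51. Cyp51, which removes a methyl group from lanosterol, rose by 0.62 ± 0.21 in Ifnar1-KO (limma adjusted p 0.045), and its changes of 0.27 in CTRL and 0.22 in GF were not called. That call lay at the threshold: it was lost under 16 of 28 alternatives, among them leaving out any of the 6 Ifnar1-KO arrays (adjusted p 0.055 to 0.17). Tm7sf2, a sterol reductase, rose by 0.81 ± 0.24 in both CTRL and Ifnar1-KO from group means of 4.36 and 4.22, and its change of 0.52 in GF was not called. Its CTRL call was lost without CCR7- replicate 1 (0.077) or CCR7+ replicate 2 (0.062), where the change was 0.45, or with the CTRL groups fitted alone (0.076), and its Ifnar1-KO call without CCR7- replicate 2 or 3 or CCR7+ replicate 1 or 2 (0.066 to 0.072) or without replicate 2 at both stages (0.14). Ebp, the sterol isomerase, fell by 0.91 ± 0.28 in GF (limma adjusted p 0.029), and its changes of -0.64 in CTRL and -0.09 in Ifnar1-KO were not called. The GF call of Ebp was lost without any GF array other than CCR7+ replicate 3 (0.052 to 0.13), with the GF groups fitted alone (0.10) or without GF replicates 2 and 3 (-1.25; 0.083), while the CTRL change was called with the replicate number as a block (0.048). Dhcr7, the reductase that turns dehydrocholesterol into cholesterol, fell by 0.62 ± 0.15 in CTRL (limma adjusted p 0.0074). Its changes of -0.43 in Ifnar1-KO and -0.38 in GF were not called (0.063 and 0.098). The Ifnar1-KO change of Dhcr7 was called under 6 of 28 alternatives, among them the fit without GF replicates 2 and 3. Its GF change was called without CCR7- replicate 3 (0.018). Nsdhl and Hsd17b7, which act together in stripping methyl groups from the ring, had opposite and uncalled changes, -0.61, -0.34 and -0.62 for Nsdhl and 0.90, 0.41 and 0.69 for Hsd17b7. For Nsdhl the CTRL change was called with array weights (limma adjusted p 0.0497), and the GF change without CCR7- replicate 2 (0.033). Sc5d, a sterol desaturase, had uncalled changes of 0.46, 0.40 and 0.34. Its CTRL change was called under 4 of 28 alternatives and its Ifnar1-KO change under 1. The Hsd17b7 change in CTRL (adjusted p 0.058) was called under 8 of 28 alternatives, and the GF change was -0.06 without GF replicates 2 and 3.

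Of the 5 genes that control SREBP, 0 rose in any background. Among all genes, 12.6% rose in CTRL, 9.42% in Ifnar1-KO and 9.53% in GF. Scap and Insig2 fell in all 3 backgrounds, where 8.71% of all genes did. The median change of the 5 genes was -0.56 in CTRL, -0.34 in Ifnar1-KO and -0.58 in GF. Scap, the escort of SREBP, read 8.08, 7.81 and 7.93 in CTRL CCR7- cells and 7.04, 7.19 and 7.18 in CTRL CCR7+ cells. The Ifnar1-KO arrays read 7.79, 7.77 and 7.78 and then 7.03, 7.09 and 7.36, and in GF 7.88, 8.0 and 7.94 and then 7.56, 7.06 and 7.21. The 9 CCR7- arrays lay above all 9 CCR7+ arrays, and Scap fell by 0.80 ± 0.12, 0.62 ± 0.12 and 0.66 ± 0.12 (limma adjusted p 0.00011, 0.0012 and 0.00064). GF replicate 1 in CCR7+ cells was the closest to the other stage, and without GF replicates 2 and 3 the GF change was -0.32 and not called (0.32). Insig2, a retention factor for Scap, read 7.05, 7.11 and 7.08 in CTRL CCR7- cells and 6.07, 6.29 and 6.03 in CTRL CCR7+ cells. Its Ifnar1-KO values were 6.88, 7.08 and 7.23 and then 6.11, 5.60 and 6.34, and its GF values 7.14, 6.89 and 6.88 and then 5.96, 6.46 and 6.77. The stages did not overlap, but GF CCR7+ arrays were spread from close to the CCR7- level downward. Insig2 fell by 0.95 ± 0.19 in CTRL, 1.04 ± 0.19 in Ifnar1-KO and 0.58 ± 0.19 in GF. The GF call (adjusted p 0.046) was lost under 20 of 28 alternatives, among them leaving out any GF array except CCR7+ replicate 3 (0.072 to 0.22), any CTRL array (0.052 to 0.060), Ifnar1-KO CCR7- replicate 1, 2 or 3 or CCR7+ replicate 1 (0.050 to 0.055), and centring the arrays on their medians (0.060). Without GF replicates 2 and 3 the Insig2 change in GF was -1.18 and called (0.022).

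The transcripts of the SREBP factors themselves were not called in any background. Srebf2, which encodes the factor most tied to sterol synthesis, read 8.56, 8.41 and 8.46 in CTRL CCR7- cells and 8.19, 8.02 and 8.45 in CTRL CCR7+ cells. In Ifnar1-KO it read 8.39, 8.25 and 8.47 and then 8.57, 7.99 and 8.28, and in GF 8.53, 8.36 and 7.99 and then 8.60, 8.0 and 7.40. The stages overlapped in each background, and the changes were -0.26 (95% interval -0.77 to 0.25), -0.09 and -0.30. Srebf1, which encodes the factor most tied to fatty acid synthesis, read 6.15, 5.85 and 6.05 in CTRL CCR7- cells and 5.88, 5.85 and 5.48 in CTRL CCR7+ cells. For Ifnar1-KO the values were 6.13, 5.79 and 6.01 and then 5.73, 5.94 and 5.69, and in GF 5.86, 5.99 and 5.91 and then 5.19, 6.11 and 5.80. These values overlapped too, with changes of -0.28 (95% interval -0.67 to 0.11), -0.19 and -0.22. Insig1, itself a classic SREBP target that feeds back on Scap, read 7.40, 7.30 and 7.72 in CTRL CCR7- cells and 6.98, 6.52 and 7.25 in CTRL CCR7+ cells. On Ifnar1-KO arrays it was 7.08, 8.13 and 7.48 and then 7.65, 7.17 and 6.83, and in GF 7.66, 7.16 and 7.55 and then 7.31, 6.54 and 6.77. The CTRL stages stood apart and the others overlapped, and its changes of -0.56 (-1.17 to 0.05), -0.34 and -0.58 were not called. Those intervals reach down to -0.77 for Srebf2 and -0.67 for Srebf1 in CTRL, so a missing call does not show that the factors kept their level. The array reads transcripts, and processing of SREBP is not measured by it.

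Of the 3 measured genes of intracellular sterol handling, Npc2 rose in every background, Stard4 fell in CTRL and GF, and Npc1 was not called in any. Npc2, which hands cholesterol freed in the lysosome to the membrane protein Npc1, read 11.20 to 11.78 over the CCR7- arrays and 11.98 to 12.18 over the CCR7+ arrays, without overlap. It rose by 0.63 ± 0.10 in CTRL, 0.44 ± 0.10 in Ifnar1-KO and 0.69 ± 0.10 in GF (limma adjusted p 0.00030, 0.0054 and 0.00014), though without GF replicates 2 and 3 the GF change of 0.54 was not called (0.071). In Ifnar1-KO fitted on its own 2 groups the adjusted p was 0.056. Npc1 had uncalled changes of -0.52, -0.48 and -0.34, with the CTRL stages apart. Its CTRL change was called with the CTRL groups fitted alone (limma adjusted p 0.0082), and its Ifnar1-KO change without CCR7+ replicate 3 (0.024). Stard4, a soluble sterol carrier, fell by 0.65 ± 0.17 in CTRL and 0.57 ± 0.17 in GF, and its change of -0.23 in Ifnar1-KO was not called. The Stard4 call in GF (adjusted p 0.021) was lost without CCR7- replicate 1 or 3 or CCR7+ replicate 3 (0.052 to 0.092), with array weights (0.060), or without GF replicates 2 and 3 (-0.54; 0.37).

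Of the 5 LXR target genes measured, Abcg1 rose in each background, and Lpcat3 fell in CTRL and GF. Abcg1, which moves cholesterol onto lipoprotein particles, read 7.67, 7.5 and 7.45 in CTRL CCR7- cells and 9.09, 9.08 and 9.51 in CTRL CCR7+ cells. In Ifnar1-KO it read 7.38, 7.92 and 7.58 and then 9.22, 9.56 and 9.53, and in GF 7.48, 7.52 and 7.40 and then 9.12, 9.56 and 9.28. A gap of more than 1 log2 unit separated the stages. Abcg1 rose 3.23-fold in CTRL (95% interval 2.57 to 4.06), 3.51-fold in Ifnar1-KO (2.79 to 4.41) and 3.61-fold in GF (2.87 to 4.54), with limma adjusted p-values of 1.08e-06, 6.62e-07 and 4.94e-07, and was called under every alternative run. Abca1, the companion exporter to lipid-poor apolipoprotein, read 3.96 to 4.35 over all arrays, with changes of 0.10, 0.11 and 0.11 that were not called. Nr1h3, the LXR alpha gene, read 4.17, 4.17 and 4.04 in CTRL CCR7- cells and 4.05, 4.10 and 4.37 in CTRL CCR7+ cells. Its values were 4.22, 4.52 and 4.12 and then 4.32, 4.14 and 4.49 in Ifnar1-KO, and 3.88, 4.25 and 4.08 and then 3.99, 4.23 and 4.5 in GF, overlapping throughout. As a rough guide to unexpressed genes, 1027 olfactory receptor genes had group means between 2.94 (5th percentile) and 4.40 (95th percentile). The group means of Abca1 and Nr1h3 lay inside that range in all 6 groups, those of Tm7sf2 in the 3 CCR7- groups and that of Lss in GF CCR7+ cells, so a change there may be understated or undetectable.

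Apoe, the apolipoprotein that accepts exported sterol, had changes of 0.74 (95% interval 0.06 to 1.42, limma adjusted p 0.10), 0.46 and 0.29, none called. Its CTRL stages did not overlap, and the CTRL change was called under 3 of 28 alternatives. These were array weights, the CTRL groups fitted alone, and the fit without GF replicates 2 and 3. In that last fit, with 1 GF array left a stage, the GF change was 1.31 and not called. Because Apoe is abundant in macrophages, their markers are given beside it: the mean of 11 was 4.65 to 4.77 on CCR7- arrays and 4.29 to 4.56 on CCR7+ arrays. In CTRL 0 of 11 rose, where 12.6% of all genes did, and Lyz2 and Csf1r fell, where 13.6% did. C1qb rose by 0.33 in Ifnar1-KO and 0.46 in GF. In CTRL CCR7+ cells, where the mean of the 11 was 4.38 to 4.51, Adgre1 and Mertk averaged 3.44 and 3.57, inside the range of olfactory receptor genes. C1qa averaged 4.42, just above that range, and single levels of the rest are not given here. The part of macrophage RNA in the Apoe values was not tested. Mylip, an LXR-induced ubiquitin ligase that degrades lipoprotein receptors, had changes of 0.17, -0.16 and 0.03, which were not called. Lpcat3, which loads polyunsaturated chains into phospholipids, fell by 0.91 ± 0.27 in CTRL and 1.16 ± 0.27 in GF (limma adjusted p 0.023 and 0.0059), and its change of -0.41 in Ifnar1-KO was not called, but was without Ifnar1-KO replicate 2 at both stages (-0.86; 0.043). The CTRL call of Lpcat3 was lost without CCR7- replicate 1 (0.12) or CCR7+ replicate 3 (0.12), and the GF call without GF replicates 2 and 3 (0.091).

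Of the 3 fatty acid genes, which SREBP1 and LXR both control in other tissues, Fasn and Scd2 fell in every background and Scd1 rose in Ifnar1-KO. Fasn, fatty acid synthase, read 7.58, 7.03 and 7.04 in CTRL CCR7- cells and 5.44, 5.04 and 5.51 in CTRL CCR7+ cells. Its Ifnar1-KO values were 6.94, 6.45 and 7.23 and then 5.13, 5.42 and 5.30, and in GF 6.97, 6.65 and 6.31 and then 5.24, 5.30 and 5.02. Every CCR7- array was above every CCR7+ array, and Fasn was 3.70-fold lower in CTRL (95% interval 2.70 to 5.07), 3.01-fold in Ifnar1-KO and 2.74-fold in GF, with limma adjusted p-values of 8.44e-06, 5.29e-05 and 0.00012. Scd2, a stearoyl-CoA desaturase, read 8.42, 8.05 and 7.93 in CTRL CCR7- cells and 5.97, 4.98 and 5.57 in CTRL CCR7+ cells. Its Ifnar1-KO values were 7.57, 9.22 and 8.16 and then 5.53, 6.82 and 5.72, and its GF values 7.81, 8.0 and 7.89 and then 5.27, 5.92 and 4.86. The stages did not overlap, with Ifnar1-KO replicate 2 highest at both stages. Scd2 was 6.17-fold lower in CTRL (3.36 to 11.3), 4.89-fold in Ifnar1-KO and 5.85-fold in GF. The GF fall of 2.54 without GF replicates 2 and 3 had an adjusted p of 0.058. Scd1, the sister desaturase, rose by 0.95 ± 0.28 in Ifnar1-KO (limma adjusted p 0.023), with uncalled changes of 0.12 in CTRL and 0.48 in GF. With the replicate number as a block the Scd1 adjusted p was 0.054. It was 0.12 with the Ifnar1-KO groups fitted alone and 0.060 to 0.12 without CCR7- replicate 1 or 3 or CCR7+ replicate 1 or 3. Without Ifnar1-KO replicate 2 at both stages the Scd1 rise was 1.43 (0.0022).

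Apol7c, an apolipoprotein L family member, had the largest SD within a group of any member. It read 8.0, 7.81 and 8.67 in CTRL CCR7- cells and 11.16, 11.41 and 11.49 in CTRL CCR7+ cells. In Ifnar1-KO it read 7.24, 8.19 and 6.43 and then 11.94, 10.60 and 11.02, and in GF 8.55, 5.60 and 6.52 and then 11.29, 10.81 and 10.86. All CCR7+ arrays, from 10.60 to 11.94, lay above all CCR7- arrays, and the CCR7- arrays of GF had an SD of 1.51, replicate 1 being high. Apol7c rose 9.15-fold in CTRL (95% interval 3.78 to 22.2), 14.9-fold in Ifnar1-KO (6.16 to 36.2) and 17.0-fold in GF (7.04 to 41.3), with limma adjusted p-values of 0.00088, 0.00019 and 0.00011. Without GF replicates 2 and 3 the GF rise was 2.74 on the log2 scale and still called (adjusted p 0.041). The mean of 11 markers of mature DCs was 8.30 on GF CCR7- replicate 1 and 6.96 and 7.27 on replicates 2 and 3, the same order as Apol7c. The order also matched in Ifnar1-KO CCR7- cells (7.51, 7.78 and 7.40) but not in CTRL CCR7- cells (8.09, 8.11 and 8.37). Whether the content of mature cells bears on the Apol7c values was not tested.

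**Figure D3:**
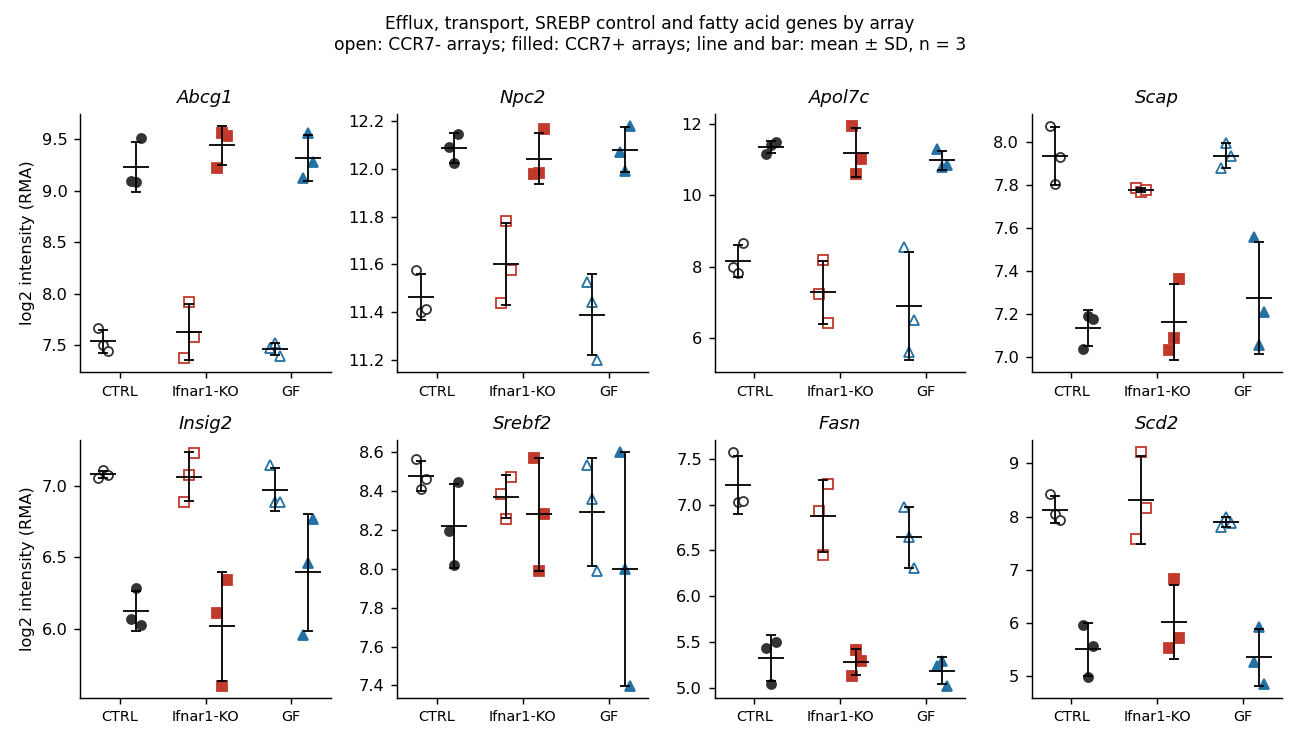
Log2 intensity of 8 further members on each array, by background; open symbols are CCR7- arrays, filled symbols CCR7+ arrays, and lines with bars the mean ± SD of 3 arrays. Filled symbols lie higher for Abcg1, Npc2 and Apol7c and lower for Scap, Insig2, Fasn and Scd2, while for Srebf2 they overlap the open symbols; vertical scales differ between panels.

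The wider pathway, 71 measured genes from lists of related steps that are not members, had 11 rising and 22 falling genes in CTRL, where 12.6% and 13.6% of all genes did. The counts were 12 and 19 in Ifnar1-KO, beside 9.42% and 10.8% of all genes, and 8 and 18 in GF, beside 9.53% and 11.8%. Of 10 genes of uptake and lysosomal release, 2 rose and 4 fell in CTRL. Cd36, a scavenger receptor for fatty acids and oxidized lipoproteins, fell by 4.89, Lipa, the lysosomal acid lipase that frees cholesterol from esters, by 2.93, and Scarb1, a receptor for high-density lipoprotein, by 2.46, whereas Lrp8, a receptor for Apoe, rose by 2.33. These genes were called in the same direction in the other backgrounds, at -4.06 and -4.28 for Cd36, -2.10 and -2.82 for Lipa, -2.61 and -2.28 for Scarb1, and 2.10 and 2.12 for Lrp8 in Ifnar1-KO and GF. Of 5 further LXR partners and targets, Rxra, the receptor that pairs with LXR, fell by 2.79 in CTRL, 2.41 in Ifnar1-KO and 2.65 in GF, and Abca7 rose by 1.12 in CTRL and 1.02 in Ifnar1-KO. Of 10 further genes of fatty acid synthesis, 7 fell in CTRL, led by the desaturase Fads1 at -1.80, the carboxylase Acaca at -1.63 and Fads2 at -0.94, while Me1, a source of NADPH, rose by 0.84. Of 6 further sterol synthesis genes Lbr, a sterol reductase that also anchors chromatin to the nuclear envelope, fell by 1.81 in CTRL and 1.70 in GF, and 0 rose in CTRL. Of 6 genes of SREBP processing and turnover, the ubiquitin ligase Syvn1 fell by 1.37 and the protease Mbtps1 rose by 0.44 in CTRL.

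Maturation of the members was not found to depend on the background. The change in Ifnar1-KO minus that in CTRL was called for 0 of 35 members and 0 of 19938 genes (limma), and 0 members and 901 genes (4.52%) had an unadjusted p under 0.05. For GF minus CTRL the counts were 0 members and 0 genes called, with 0 members and 660 genes (3.31%) at an unadjusted p under 0.05. The design could miss differences of moderate size, since the median 95% half-width was 0.71 log2 for members and 0.38 for all genes. The member with the smallest p was Idi1, whose rise was larger by 0.71 in Ifnar1-KO (95% interval -3.7e-05 to 1.42; p 0.050, adjusted p 0.96), which allows anything from no difference to a rise 2.68-fold larger. Scd1 differed by 0.83 (-0.01 to 1.68; adjusted p 0.96). In GF the widest differences were in Apol7c at 0.90 (-0.91 to 2.70) and Fdft1 at 0.50 (-0.15 to 1.16), both with an adjusted p of 0.999. For Abcg1 the differences were 0.12 (-0.35 to 0.59) in Ifnar1-KO and 0.16 (-0.31 to 0.63) in GF, and for Scap 0.19 (-0.17 to 0.54) and 0.14 (-0.22 to 0.49). Both sets of differences use the same CTRL arrays and are not independent of each other.

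**Figure D4:**
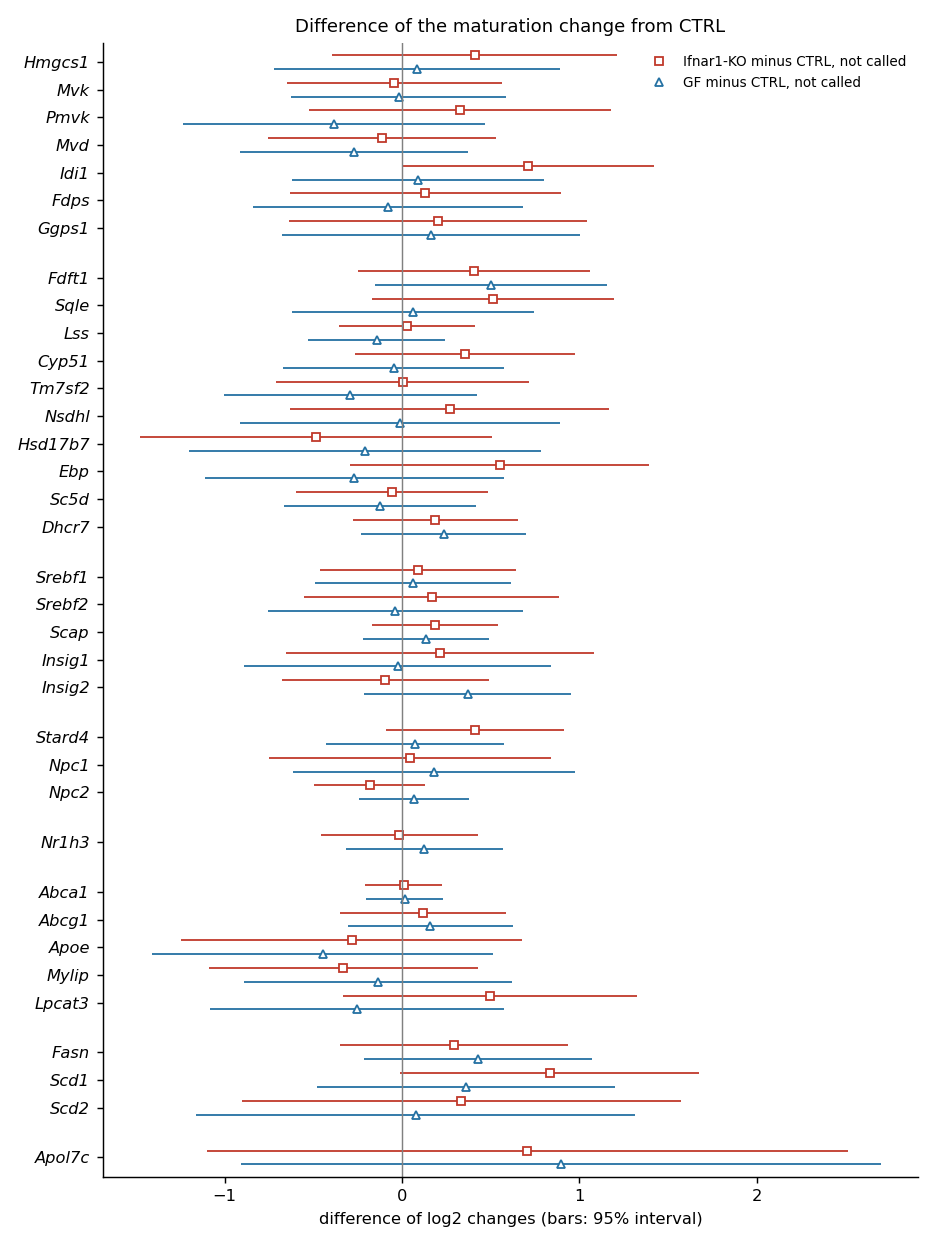
Maturation change in Ifnar1-KO (squares) or GF (triangles) minus that in CTRL, on the log2 scale, with 95% confidence intervals, for the 35 members grouped by role. All symbols are open because 0 differences were called; the intervals of Idi1 and Scd1 in Ifnar1-KO start close to 0, and those of Apol7c are the widest.

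Within a stage, 0 of 35 members were called between backgrounds in any of the 4 comparisons, where 0, 3, 3 and 6 genes (0.0, 0.015, 0.015 and 0.0301%) were called for Ifnar1-KO against CTRL in CCR7- and CCR7+ cells and GF against CTRL in CCR7- and CCR7+ cells. At an unadjusted p under 0.05 there were 2, 0, 2 and 0 members, beside 1401, 582, 1260 and 1168 genes (7.03, 2.92, 6.32 and 5.86%). In immature cells the difference of Ifnar1-KO from CTRL was -0.73 for Idi1 (95% interval -1.23 to -0.23; p 0.0075, limma adjusted p 0.68) and -0.64 for Sqle (-1.13 to -0.16; adjusted p 0.68). In immature GF cells the values were -0.57 for Fasn (-1.03 to -0.12) and 0.39 for Sc5d (0.01 to 0.77), both with an adjusted p of 0.77. None of these passed the adjustment. Sex-linked transcripts also differed between backgrounds: the Y-linked Eif2s3y read 3.34 to 3.49 in CTRL, 5.22 to 7.84 in Ifnar1-KO and 7.71 to 8.76 in GF, and Xist, made from the inactive X chromosome, 7.80 to 9.63, 6.14 to 8.91 and 3.80 to 4.37. Background and sex-linked transcripts therefore cannot be told apart in the comparisons with CTRL, and Ebp and Nsdhl are themselves X-linked. The maturation changes compare stages within a background. In Ifnar1-KO the level of Eif2s3y also differed between the stages, at 5.22 to 6.83 in CCR7- cells and 6.35 to 7.84 in CCR7+ cells, and the part of that in the changes was not tested.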

How the data were processed

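XCR1+ thymic DC RNA was read on 18 Affymetrix Mouse Gene ST arrays. Nanogram amounts of RNA were amplified before hybridisation, per the labels. The authors deposited log2 intensities, made by RMA with oligo per the submitters' processing notes. The versions are not stated there, and neither is joint normalization of the arrays. Of 35556 probesets, 21789 with 1 gene symbol were kept (1621 had several, 12146 none), which gave 19938 genes with the highest-mean probeset each. No gene was filtered, and an array has no read depth; 3 arrays a group limit the precision.

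Linear models were fitted with limma 3.58.1 (statmod 1.5.0) in R 4.3.3 over all 18 arrays with 1 mean per group, 12 residual and 14.4 total degrees of freedom, and Benjamini-Hochberg adjustment over all genes of a comparison; changes under 0.05 were called. Tests are two-sided, a fold is 2 to the power of the log2 change, and ± is the SE of the fit unless an SD is named. Tables and figures used Python 3.11.15 (pandas 2.3.3, numpy 2.4.6, matplotlib 3.10.9). On simulated data for CTRL maturation, with 200 of 19938 genes changed, changes of log2 1 were called in 84.0% and of log2 2 in 97.0%. The changed genes were drawn from all genes, whose median SD was 0.12 against 0.23 for members. In the data 26.2% of all genes were called in CTRL, so these shares do not give the power for members.

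Members and lists were chosen with earlier results of these data known. Array values are given for members called in CTRL with a change of at least 1 and for the regulators of SREBP and LXR; other pathway genes were the 3 with the largest called CTRL change in each direction and list. Whether same-numbered arrays form pairs was checked by asking if their deviations from the group means correlated above 0.1. This held in CTRL (0.188, 0.147 and 0.100, the last at the threshold) and Ifnar1-KO (0.284, 0.321 and 0.236). In GF it held for replicate 1 (0.267) but not for replicates 2 and 3 (0.00354 and 0.0296). The main fits used no pairs. The replicate block, tried as an alternative, was applied in all 3 backgrounds, GF included. The array codes of the CTRL pair numbered 2 carry inverted letters; the stage in the labels was used. The alternatives tried were array weights, a trend of variance on intensity, a filter at the median level, centred arrays, the mean of all probesets, the compared groups alone, a replicate block, the trailing r of array codes as covariate, and leaving out arrays. All 35 members matched RefSeq (GRCm38.p6) by gene ID.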

Additional observations from a re-analysis of the deposited data

How the results depend on the processing

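Counts of members called were recomputed under 28 alternatives for each comparison, of which those without Ifnar1-KO replicate 2 and without GF replicates 2 and 3 were chosen after seeing the data. No called change reversed. In CTRL, 13 of 17 calls held under every alternative, in Ifnar1-KO 11 of 15 and in GF 5 of 16 (Idi1, Fdft1, Abcg1, Fasn and Apol7c). Leaving out single arrays gave 14 to 18 calls in CTRL, 12 to 15 in Ifnar1-KO and 11 to 16 in GF. Of all 19938 genes, those fits called 4083 to 5561 in CTRL, 3362 to 4129 in Ifnar1-KO and 3638 to 4561 in GF. They called 0 members in each comparison between backgrounds. Without GF replicates 2 and 3 at both stages 7 members were called in GF, 5 up and 2 down, of which 6 were among the 16; that fit keeps 1 array a stage, assumed to vary like the other groups. With array weights 22 members were called in CTRL, beside 7209 of 19938 genes, and with the CTRL groups alone 21, beside 6169 genes. The main fit called 17 members and 5218 genes there. With the replicate number as a block 18 members were called in CTRL (Ebp gained), 14 in Ifnar1-KO (Scd1 lost) and 14 in GF (Pmvk and Insig2 lost), and 0 in every comparison between backgrounds; the block changed no other member's call. The block fits called 5556, 4353 and 4555 of 19938 genes in CTRL, Ifnar1-KO and GF. Centring the arrays moved the median of all genes by 0.05 or less. Restricting to genes at or above the median level left 31 members. Members had a larger spread than most genes, with a median SD within groups of 0.23 against 0.12 over all genes, and a median 95% half-width of 0.50 against 0.27 for a maturation change, which limits what can be called for them.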

Other observations

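Further genes of sterol and isoprenoid use were measured but belong to none of the comparisons of the members. Of 10 genes that transfer sterol between membranes, 3 rose and 2 fell in CTRL, where 12.6% and 13.6% of all genes did. Gramd1b, which carries cholesterol from the plasma membrane to the endoplasmic reticulum, rose by 2.57 in CTRL, 2.64 in Ifnar1-KO and 2.42 in GF (limma adjusted p 4.44e-07, 4.18e-07 and 9.23e-07), its relative Gramd1a by 0.92 in CTRL and 1.09 in Ifnar1-KO (0.62 in GF, not called), and Osbpl8 by 0.93, 0.89 and 1.14. Stard5 fell by 0.75, 0.68 and 0.86. Osbp, the founding oxysterol-binding protein, fell by 0.64 in CTRL and 0.85 in Ifnar1-KO, and its change of 0.33 in GF was not called. Of 11 genes that use prenyl groups, 0 rose and 4 fell in CTRL, beside the same 12.6% and 13.6% of all genes. The largest changes were -1.67 for Coq2 of ubiquinone synthesis, -0.92 for the prelamin A protease gene Zmpste24 and -0.60 for Nus1 of dolichol synthesis.

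Of 8 genes of lipid droplets and cholesteryl ester turnover, 2 rose and 2 fell in CTRL, where 12.6% and 13.6% of all genes did. Dgat2, which makes triglyceride, fell by 2.08, 2.28 and 1.86 in CTRL, Ifnar1-KO and GF, and the droplet coat gene Plin2 by 1.36, 0.84 and 0.94. Pnpla2, the lipase that opens droplets, rose by 0.79, 0.77 and 1.03, and Plin3 by 0.53 in CTRL and 0.50 in GF. Of 5 genes of oxysterol synthesis and sensing, 1 was called in CTRL, where 26.2% of all genes were. That gene, Hsd3b7, which inactivates oxysterol ligands of GPR183, rose by 0.71, 0.71 and 0.54 (limma adjusted p 0.0072, 0.0079 and 0.038).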
